A study of Mus musculus with 24 samples.

Results

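A set of 10 CC chemokine genes was followed through a lipopolysaccharide (LPS) time course in mouse bone marrow macrophages, with and without an inhibitor of BET bromodomain proteins. The members were Ccl2, Ccl3, Ccl4, Ccl5, Ccl6, Ccl7, Ccl9, Ccl12, Ccl17 and Ccl22, taken as every array probe whose platform annotation carries such a symbol. They had 12 of the 25697 probes, with 2 probes each for Ccl4 and Ccl12 and 1 for each other gene, and made up 10 of the 16593 genes represented. The macrophages came from female C57BL/6 mice 6 weeks of age and were assayed on 24 Illumina bead arrays, 3 biological replicates for each of 8 groups. Control macrophages were sampled at 0, 1, 2 and 4 h of LPS, and inhibitor-treated macrophages at the same 4 times, so the treated 0 h group had the inhibitor without LPS. The sources used here do not say which inhibitor was used, at which dose and for how long, how much LPS was given, or what the controls received in place of the inhibitor. The labels name no genetic change, and all cells came from this strain and sex.

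CC chemokines are small secreted proteins with a pair of adjacent cysteines near the amino terminus, and they draw leukocytes along a gradient by binding G protein-coupled receptors. Macrophages that sense LPS through Toll-like receptor 4 switch on several of these genes through NF-kB, AP-1 and interferon regulatory factors. BET proteins bind acetylated histones at active promoters and enhancers and help RNA polymerase II to elongate, and BET inhibitors displace them from chromatin. Among the members, Ccl2, Ccl7 and Ccl12 are ligands of Ccr2 and attract monocytes. Ccl3, Ccl4 and Ccl5 attract T cells and monocytes. Ccl17 and Ccl22 bind Ccr4 on T helper and regulatory T cells, and Ccl6 and Ccl9 bind Ccr1.

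Most of the members lie in clusters. Among protein-coding genes of mouse chromosome 11, Ccl2 and Ccl7 are neighbours, with Ccl11 between Ccl7 and Ccl12, and Ccl5, Ccl9, Ccl6, Ccl3 and Ccl4 follow one another directly. Ccl22 and Ccl17 lie on chromosome 8 with Cx3cl1 between them. The RefSeq table of promoters held 6 of the 10 members, without Ccl2, Ccl4, Ccl5 and Ccl7. The 250 bases upstream of the annotated start are printed for Ccl12 and Ccl17, on which the inhibitor comparison turned, for Ccl3, an LPS-responsive gene of the other chromosome 11 cluster, and for Ccl9, which was high in every group (RefSeq, GRCm38.p6, 5′ to 3′ on the gene's strand, with matches to a searched motif in capitals). The Ccl17 window lies inside the annotated span of its gene.
Ccl12, chr11:82101595-82101844, plus strand: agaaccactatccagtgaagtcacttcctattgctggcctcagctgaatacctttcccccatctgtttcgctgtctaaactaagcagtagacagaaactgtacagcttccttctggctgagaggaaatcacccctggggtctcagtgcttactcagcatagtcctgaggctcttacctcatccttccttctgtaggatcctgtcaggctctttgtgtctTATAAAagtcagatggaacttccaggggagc
Ccl17, chr8:94810203-94810452, plus strand: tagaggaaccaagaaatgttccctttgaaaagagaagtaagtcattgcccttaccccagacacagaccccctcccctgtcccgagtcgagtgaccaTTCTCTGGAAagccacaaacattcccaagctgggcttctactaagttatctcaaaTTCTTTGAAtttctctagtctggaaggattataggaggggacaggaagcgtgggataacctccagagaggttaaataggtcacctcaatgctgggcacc
Ccl3, chr11:83649379-83649628, minus strand: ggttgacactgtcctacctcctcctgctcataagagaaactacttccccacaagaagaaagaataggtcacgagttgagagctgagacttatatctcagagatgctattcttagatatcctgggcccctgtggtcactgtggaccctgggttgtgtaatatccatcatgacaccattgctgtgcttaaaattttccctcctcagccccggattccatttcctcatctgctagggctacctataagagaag
Ccl9, chr11:83578637-83578886, minus strand: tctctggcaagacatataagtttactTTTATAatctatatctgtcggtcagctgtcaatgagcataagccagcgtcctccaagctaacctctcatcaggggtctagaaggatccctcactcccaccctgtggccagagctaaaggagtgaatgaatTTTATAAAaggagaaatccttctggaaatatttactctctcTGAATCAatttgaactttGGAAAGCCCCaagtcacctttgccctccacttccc

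The windows were searched on both strands for an NF-kB consensus (found in 3.9% of all 32851 promoter windows of this length), the AP-1 site TGANTCA (6.7%), an interferon response element of 2 GAAA blocks parted by 2 bases (3.0%), the STAT site TTCNNNGAA (7.0%), the wider STAT6 site with TTC and GAA parted by 4 bases (5.9%) and the TATA box TATAAA (12.4%). The Ccl12 window held 1 match, a TATA box at -31 to -26 from the start. In the Ccl17 window a STAT6 site lay at -154 to -145 and a STAT site at -99 to -91. The Ccl9 window held an AP-1 site at -53 to -47 and an NF-kB match at -35 to -26, the latter on the strand opposite to that printed. It also held 3 TATA box matches. Those at -224 to -219 and -94 to -89 lay on the opposite strand and that at -92 to -87 on the printed strand, and the last 2 overlap. None of these letters was found in the Ccl3 window. CpG dinucleotides numbered 1 in the Ccl12 window, 2 in those of Ccl3 and Ccl9 and 3 in that of Ccl17, against a median of 6 over all windows.

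Values were the authors' deposited levels per probe, read as log2 intensities, and a level of 1 probe is not comparable with that of another. A floor was set at 6.46, the 99th percentile of 1305 probes for olfactory and vomeronasal receptors, genes taken here as mostly not expressed in these cells (their median was 5.89). A gene entered the tests if its probe was above the floor on all 3 arrays of a group. For 9 members the 11 probes passed and were above it on all 24 arrays, and the Ccl22 probe was above it on none. Differences were tested with limma across all 8203 genes that passed (7584 with a symbol, the rest single probes without one). A gene was called at an adjusted p under 0.05. Of 8 macrophage markers on the array, 7 were above the floor on every array (Msr1 was not), and the mean level of the 8 lay between 10.8 and 11.3. None of 7 T and NK cell markers was above the floor on any array. On any 1 array at most 1 of 4 B cell, 1 of 3 erythroid, 2 of 8 dendritic cell, 3 of 5 stromal, 3 of 4 mast cell and basophil and 4 of 9 granulocyte markers were, and Itgax, Dcn, Cpa3, Fcer1a, S100a8 and Mmp8 were on all 24.

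**Figure D1:**
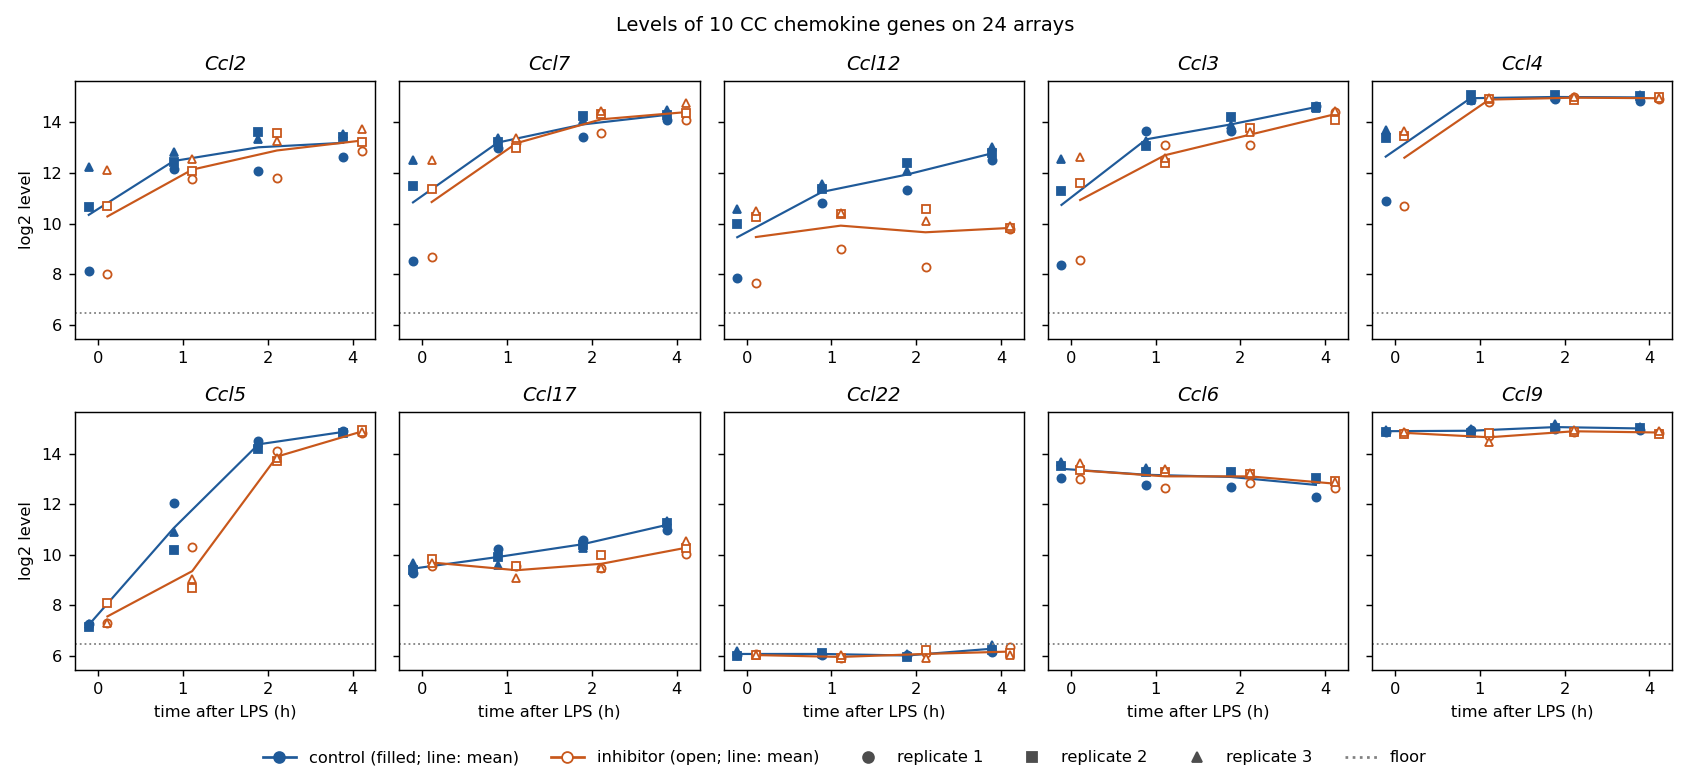
Log2 level of each of the 10 genes on all 24 arrays against the time after LPS, with the 4 times evenly spaced. Filled blue symbols are control and open orange symbols inhibitor-treated macrophages, the symbol shape gives the replicate, lines join group means and the dotted line is the floor of 6.46. Ccl12 had a mean of 9.83 in treated and 12.77 in control cells at 4 h, Ccl5 climbed in both treatments, and Ccl22 lay under the floor on every array.

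Ccl12, a mouse monocyte chemoattractant that signals through Ccr2, was 7.70-fold lower in inhibitor-treated than in control macrophages after 4 h of LPS. Ccl2 and Ccl7, ligands of the same receptor, had nearly equal means under both treatments. In control replicates 1, 2 and 3, Ccl12 stood at 7.85, 9.97 and 10.56 before LPS, 10.81, 11.36 and 11.58 after 1 h, 11.34, 12.40 and 12.08 after 2 h and 12.53, 12.78 and 13.01 after 4 h. The inhibitor-treated replicates read 7.65, 10.25 and 10.51 before LPS, 8.99, 10.37 and 10.40 after 1 h, 8.28, 10.59 and 10.10 after 2 h and 9.78, 9.82 and 9.89 after 4 h. Before LPS the groups overlapped almost completely, and at every later time each treated array was below each control array. The group means ran from control at 4 h (12.77) through control at 2 h (11.94) and 1 h (11.25) to the 5 remaining groups, which lay between 9.46 and 9.92 and overlapped from each to the next. In bulk RNA, fewer cells expressing the gene and less RNA per cell cannot be told apart.

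The 4 h difference for Ccl12 was -2.95 ± 0.69 (log2, SE; 95% interval -4.39 to -1.50, adjusted p = 0.00387), with the treated array lower in 3 of 3 pairs of the same replicate number. After 2 h it was -2.28 ± 0.69, outside the threshold (adjusted p = 0.0517) but inside it with the replicate number as a block (adjusted p = 0.000653), after centring on housekeeping genes (0.0433), after cyclic loess (0.0389) or without treated replicate 2 of that time (-2.75, adjusted p = 0.0392). Of 9 fits without 1 array of these groups or 1 replicate number, 2 called the 2 h difference (largest adjusted p = 0.322). The 1 h value of -1.33 ± 0.69 was not called (adjusted p = 0.955, and 0.122 with the block). Of the 9 such fits for 1 h, only that without all arrays numbered 1 called it (-1.09, adjusted p = 0.00635). Before LPS the difference was 0.01 ± 0.69 (95% interval -1.44 to 1.45). Leaving out any single array kept the 4 h call (-3.07 to -2.83), whereas leaving out all 8 arrays numbered 2 (-2.93, adjusted p = 0.0924) or 3 (-2.86, adjusted p = 0.0867) lost it. The other Ccl12 probe stood at 11.01, 11.72 and 11.82 in control and 8.26, 8.53 and 9.03 in treated cells after 4 h, a difference of -2.91 ± 0.68 (adjusted p = 0.00409), and differed by -2.08 ± 0.68 after 2 h (adjusted p = 0.0793).

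In control cells Ccl12 rose with LPS, by 2.48 ± 0.69 at 2 h (adjusted p = 0.0110, or 1.67 and 0.0830 without control replicate 1 of 0 h) and by 3.31 ± 0.69 at 4 h (adjusted p = 0.000467). The 2 h call was also lost without all arrays numbered 2 (0.1235) or 3 (0.0659). In treated cells the changes at 2 h and 4 h were 0.19 ± 0.69 (adjusted p = 0.899) and 0.36 ± 0.69 (adjusted p = 0.700). The treated change at 4 h was upward in replicate 1 and downward in replicates 2 and 3, and without the arrays numbered 1 it was -0.52 (adjusted p = 0.0337), a fall. A direct test of the difference between the control and treated responses at 4 h gave -2.95 ± 0.98 (adjusted p = 0.0701), which passed with the block (adjusted p = 0.00145), after centring on housekeeping genes (0.0357), without control replicate 3 of 0 h (0.0407) and without treated replicate 1 of 0 h (0.00755). Of 15 fits without 1 array of these groups or 1 replicate number, 3 called it (largest adjusted p = 0.452). For 2 h that test gave -2.29 ± 0.98 (adjusted p = 0.518, and 0.0344 with the block).

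Ccl2, a major monocyte chemoattractant, varied widely before LPS. Its control replicates 1, 2 and 3 read 8.13, 10.67 and 12.24 before LPS, 12.16, 12.42 and 12.84 after 1 h, 12.06, 13.63 and 13.35 after 2 h and 12.62, 13.44 and 13.53 after 4 h. Treated replicates read 8.02, 10.70 and 12.13 before LPS, 11.76, 12.09 and 12.56 after 1 h, 11.80, 13.59 and 13.28 after 2 h and 12.87, 13.22 and 13.75 after 4 h. At each time the treatments overlapped, and arrays with the same replicate number lay close together. The treated array was below the control of its number in 3 of 3 pairs after 1 h and after 2 h, and in 1 of 3 after 4 h. Inhibitor against control differed by -0.06 ± 0.86 before LPS and then by -0.34, -0.12 and 0.09 with the same SE, none of them called. The 95% interval after 4 h ran from -1.69 to 1.87, and with the block from -1.03 to 1.21.

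Ccl7, a further Ccr2 ligand and the neighbour of Ccl2, took the same course. Control levels were 8.51, 11.50 and 12.51 in replicates 1, 2 and 3 before LPS and 14.11, 14.29 and 14.51 after 4 h, by way of 12.98 to 13.39 after 1 h and 13.42 to 14.24 after 2 h. Treated levels were 8.68, 11.35 and 12.53 before LPS and 14.09, 14.38 and 14.75 after 4 h, by way of 12.99 to 13.37 and 13.60 to 14.46. The treatments overlapped at all 4 times, though after 2 h the treated array was above the control of its number in 3 of 3 pairs. The inhibitor difference was 0.02 ± 0.77 before LPS and -0.02, 0.20 and 0.11 after 1, 2 and 4 h, with a 95% interval of -1.50 to 1.71 for the last. Levels after 4 h neared the top of the deposited scale, 15.17, where a difference can be understated.

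The gap between Ccl12 and the other Ccr2 ligands was also read within each array, as the log2 level of Ccl12 minus that of Ccl2. After 4 h this lay between -0.65 and -0.09 in control arrays and between -3.86 and -3.09 in treated ones, a shift of -3.04 from control to treated. Against Ccl7 the shift was -3.05. An exact two-sided permutation test over 3 against 3 arrays gave p = 0.1 for each, the smallest it can give. Before LPS the same shifts were 0.07 and -0.01 (exact permutation p = 0.9 and 1).

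Ccl5, which attracts T cells and monocytes, had the largest rise of any member after 2 h and 4 h of LPS and was the only one called lower with the inhibitor after 1 h. Its control replicates 1, 2 and 3 read 7.26, 7.16 and 7.26 before LPS, 12.04, 10.20 and 10.91 after 1 h, 14.49, 14.18 and 14.41 after 2 h and 14.89, 14.81 and 14.86 after 4 h. Treated replicates read 7.29, 8.09 and 7.31 before LPS, 10.32, 8.70 and 9.05 after 1 h, 14.11, 13.70 and 13.83 after 2 h and 14.81, 14.95 and 14.86 after 4 h. Before LPS every treated array was slightly above every control array. After 1 h the ranges overlapped, the highest treated array lying just above the lowest control array, yet each treated replicate was below the control of its number. The treated group was fully below control after 2 h, and the groups overlapped after 4 h.

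The 1 h difference was -1.69 ± 0.36, a 3.23-fold lower level (95% interval -2.44 to -0.95, adjusted p = 0.0142). This call was lost without control replicate 1 (-1.20, adjusted p = 0.127), treated replicate 2 (-1.37, adjusted p = 0.118) or treated replicate 3 (-1.54, adjusted p = 0.104) of that time. It was also lost without all arrays numbered 2 (-1.79, adjusted p = 0.0681) or 3 (-1.61, 0.832). The difference was 0.34 ± 0.36 before LPS, -0.48 ± 0.36 after 2 h (adjusted p = 0.549) and 0.02 ± 0.36 after 4 h (95% interval -0.73 to 0.76, adjusted p = 0.982). Levels after 4 h lay close to the top of the deposited scale, 15.17, where a difference can be understated.

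With LPS alone, Ccl5 was up by 3.82 ± 0.36 after 1 h, 7.14 after 2 h and 7.63 after 4 h (198-fold, adjusted p = 1.15e-12). In treated cells it was up by 1.79 ± 0.36, 6.32 and 7.31 at the same times, all called. The 1 h responses differed by -2.03 ± 0.51 (adjusted p = 0.312, and 0.0840 with the block), which passed the threshold without control replicate 2 (-2.45, adjusted p = 0.0282) or treated replicate 1 (-2.51, adjusted p = 0.0438) of 1 h. Of 15 fits without 1 array of these groups or 1 replicate number, 3 called that difference. From 1 h to 4 h Ccl5 went on rising, by 3.81 ± 0.36 in control and 5.52 ± 0.36 in treated cells (adjusted p = 4.03e-08 and 5.05e-10).

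Ccl3, an inflammatory chemokine that binds Ccr1, spread before LPS in the way Ccl2 did. Control replicates 1, 2 and 3 read 8.36, 11.31 and 12.55 before LPS, 13.67, 13.07 and 13.26 after 1 h, 13.67, 14.19 and 13.90 after 2 h and 14.65, 14.60 and 14.57 after 4 h. The treated ones read 8.58, 11.60 and 12.63 before LPS, 13.13, 12.40 and 12.58 after 1 h, 13.10, 13.79 and 13.64 after 2 h and 14.43, 14.10 and 14.44 after 4 h. With LPS each treated array was below the control array of its number, and the groups were fully apart after 4 h. The differences were -0.63 ± 0.80, -0.41 and -0.29 after 1, 2 and 4 h, none of them called (adjusted p = 1, 0.846 and 0.860). Their SE pools all 8 groups and so takes in the wide spread before LPS. The SD of Ccl3 was 2.15 in control and 2.11 in treated cells at 0 h, and 0.045 and 0.195 at 4 h.

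Ccl4, a chemoattractant whose gene lies beside Ccl3, was read by 2 probes. The brighter stood at 10.88, 13.37 and 13.69 in control and 10.70, 13.45 and 13.67 in treated replicates 1, 2 and 3 before LPS, and between 14.81 and 15.10 on all 18 arrays with LPS, near the top of the scale. The other read 13.78, 13.08 and 13.43 in control and 13.03, 12.17 and 12.59 in treated cells after 1 h. Each treated array of the other probe was below the control of its number at that time, and all 3 were below the lowest control array. Its inhibitor difference was -0.83 ± 0.72, against -0.06 ± 0.59 for the brighter probe, and neither was called. After 4 h the differences were -0.09 ± 0.72 and -0.03 ± 0.59. LPS raised the brighter probe in control cells by 2.34 ± 0.59 after 4 h and the other by 4.89 ± 0.72, so the probes disagreed on the size of the response but not on its direction.

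Ccl17, which attracts T helper cells through Ccr4, was up after 2 h and 4 h of LPS in control cells and lower at both times with the inhibitor. Control replicates 1, 2 and 3 read 9.29, 9.39 and 9.68 before LPS, 10.23, 9.91 and 9.59 after 1 h, 10.59, 10.40 and 10.26 after 2 h and 10.97, 11.24 and 11.35 after 4 h. Treated replicates read 9.56, 9.83 and 9.69 before LPS, 9.55, 9.55 and 9.07 after 1 h, 9.47, 9.99 and 9.47 after 2 h and 10.01, 10.26 and 10.56 after 4 h. Before LPS each treated array was above the control array of its number, and at the 3 later times every treated array was below every control array. Control at 4 h was the highest group and stood apart from the next, control at 2 h, which overlapped with treated at 4 h.

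The inhibitor difference for Ccl17 was -0.77 ± 0.19 after 2 h (adjusted p = 0.0116) and -0.91 ± 0.19 after 4 h (1.88-fold lower, 95% interval -1.30 to -0.52, adjusted p = 0.00120). Before LPS it was 0.24 ± 0.19 and after 1 h -0.52 ± 0.19 (adjusted p = 1 and 0.373). The 2 h call was lost without control replicate 1 (-0.69, adjusted p = 0.0696), treated replicate 1 (-0.69, adjusted p = 0.0555) or treated replicate 3 (-0.69, adjusted p = 0.0690) of 2 h. It was also lost without all arrays numbered 1 (-0.60, adjusted p = 0.0635), 2 (-0.95, 0.103) or 3 (-0.77, 0.0690). The 4 h call was kept without any single array (-1.05 to -0.78) and lost when all arrays numbered 2 were left out (-0.87, adjusted p = 0.0594).

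LPS raised Ccl17 in control cells by 0.96 ± 0.19 after 2 h (adjusted p = 0.000577) and 1.73 ± 0.19 after 4 h (adjusted p = 1.74e-07). In treated cells the changes were -0.31, -0.05 and 0.58 after 1, 2 and 4 h, of which the last was called (adjusted p = 0.0147), though not without treated replicate 1 of 0 h (0.0536) or treated replicate 3 of 4 h (0.0854). That call was also lost without all arrays numbered 2 (0.0796) or 3 (0.103). The control and treated responses differed by -1.15 ± 0.26 after 4 h (adjusted p = 0.00894). After 2 h they differed by -1.02 ± 0.26 (adjusted p = 0.0784), a difference called with the block (0.0311) or without treated replicate 2 of 2 h (0.0392). Of 15 fits without 1 array of these groups or 1 replicate number, only that 1 called it (largest adjusted p = 0.745).

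Ccl22, the other Ccr4 ligand, was not above the floor on any of the 24 arrays. Its probe read between 5.92 and 6.44, and no fold change is given. After 4 h of LPS its mean was 6.29 ± 0.14 (SD, n = 3) in control and 6.17 ± 0.16 in treated cells, both within the range of the olfactory receptor probes.

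Ccl9 and Ccl6, chemokines that myeloid cells make without stimulation, were high in all groups. Ccl9 lay between 14.44 and 15.17 on the 24 arrays and held the highest value of the whole table, so changes in it can be understated. Its inhibitor difference was -0.07 ± 0.09 before LPS and -0.26, -0.17 and -0.16 after 1, 2 and 4 h, none of them called (adjusted p = 0.362, 0.367 and 0.229). After 2 h and 4 h every treated array was below every control array. The 4 h difference passed the threshold after centring on housekeeping genes (-0.50, adjusted p = 0.0112) and after cyclic loess (-0.26, adjusted p = 0.0494).

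Ccl6 ranged from 12.27 to 13.66 on the 24 arrays. Control replicates 1, 2 and 3 read 13.04, 13.50 and 13.66 before LPS and 12.27, 13.02 and 12.99 after 4 h, and treated ones 13.01, 13.36 and 13.63 and then 12.62, 12.93 and 12.88. Every array at 4 h was below every array of the same treatment at 0 h. In control cells the 4 h change was -0.64 ± 0.25 (adjusted p = 0.0348). That call was lost on leaving out control replicate 1 of 4 h (-0.39, adjusted p = 0.215) or, at 0 h, control replicate 2 (-0.59, 0.0942) or 3 (-0.51, 0.138), with every probe entered (0.0636), after cyclic loess (-0.33, adjusted p = 0.263) and after centring on housekeeping genes (-0.01, adjusted p = 0.972). In treated cells it was -0.52 ± 0.25 (adjusted p = 0.0880), called with the block (5.95e-05) and without treated replicate 1 of 0 h (-0.69, adjusted p = 0.0454). Inhibitor against control differed by 0.05 ± 0.25 after 4 h (95% interval -0.46 to 0.56).

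**Figure D2:**
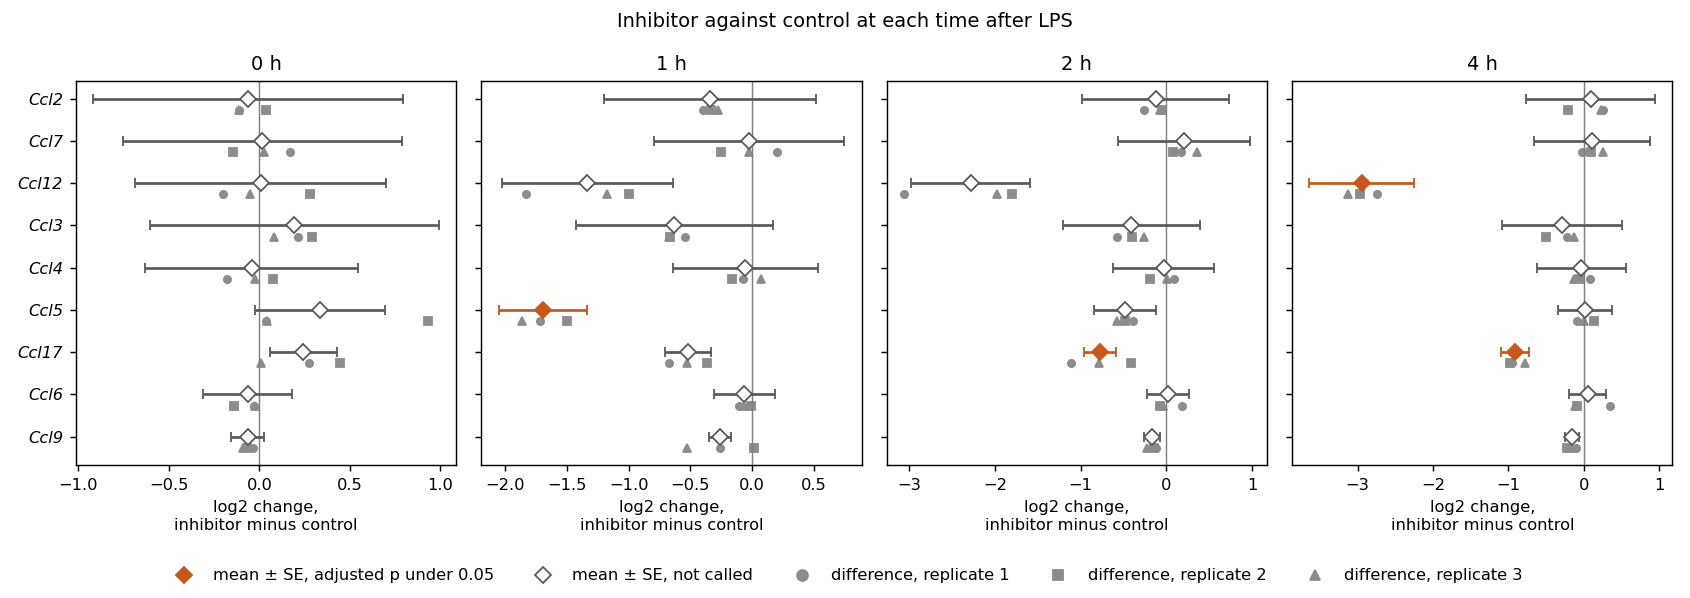
Log2 difference of inhibitor-treated from control macrophages for the 9 tested genes, in a panel for each time with its own horizontal scale. Diamonds and bars are the mean difference ± SE from limma, orange where called, and grey symbols are the differences within replicates 1, 2 and 3. Ccl5 was called at 1 h, Ccl17 at 2 h and 4 h and Ccl12 at 4 h. The bars of Ccl2, Ccl7, Ccl3 and Ccl4 (brighter probe) spanned 0 at every time.

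Over the family, 0 of the 9 tested members were called between treatments before LPS by limma (0 at an unadjusted p under 0.05), where 0.158% of all genes tested were called. After 1 h 1 of 9 was lower, Ccl5, against 0.78% of all genes. After 2 h 1 of 9 was lower, Ccl17, against 4.22%, and the block added Ccl12. After 4 h 2 of 9 were lower, Ccl12 and Ccl17, against 10.2%. None was called higher after 1, 2 or 4 h, where 0.524%, 2.72% and 12.6% of all genes were. The signs of the uncalled 4 h differences of Ccl2, Ccl5, Ccl6 and Ccl7, all slightly above 0, turned negative after centring on housekeeping genes or cyclic loess.

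After 4 h the mean of 8 macrophage markers was 10.79 to 10.87 in treated arrays, below the 11.19 to 11.28 of control arrays. Before LPS it was 10.78 to 10.94 in both treatments. The treatments also overlapped after 1 h, at 10.92 to 11.05 in treated and 10.94 to 11.01 in control arrays. After 2 h they overlapped at 10.82 to 10.94 and 10.91 to 10.98. For Ccl12 and Ccl17 every treated array was below every control array at 1, 2 and 4 h. The 4 h gap in the marker mean lay in 2 markers. Fcgr1, an IgG receptor, stood at 10.10 ± 0.27 in control and 7.37 ± 0.28 in treated cells after 4 h, and Mertk, a receptor for the uptake of dying cells, at 11.39 ± 0.23 and 10.42 ± 0.39 (SD, n = 3). The other markers above the floor differed less and in both directions, with Adgre1 at 12.95 ± 0.13 and 13.27 ± 0.24, Mrc1 at 12.61 ± 0.51 and 12.85 ± 0.47 and Cd14 at 14.06 ± 0.20 and 13.86 ± 0.20. The part of these markers in the lower chemokine levels was not tested.

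**Figure D3:**
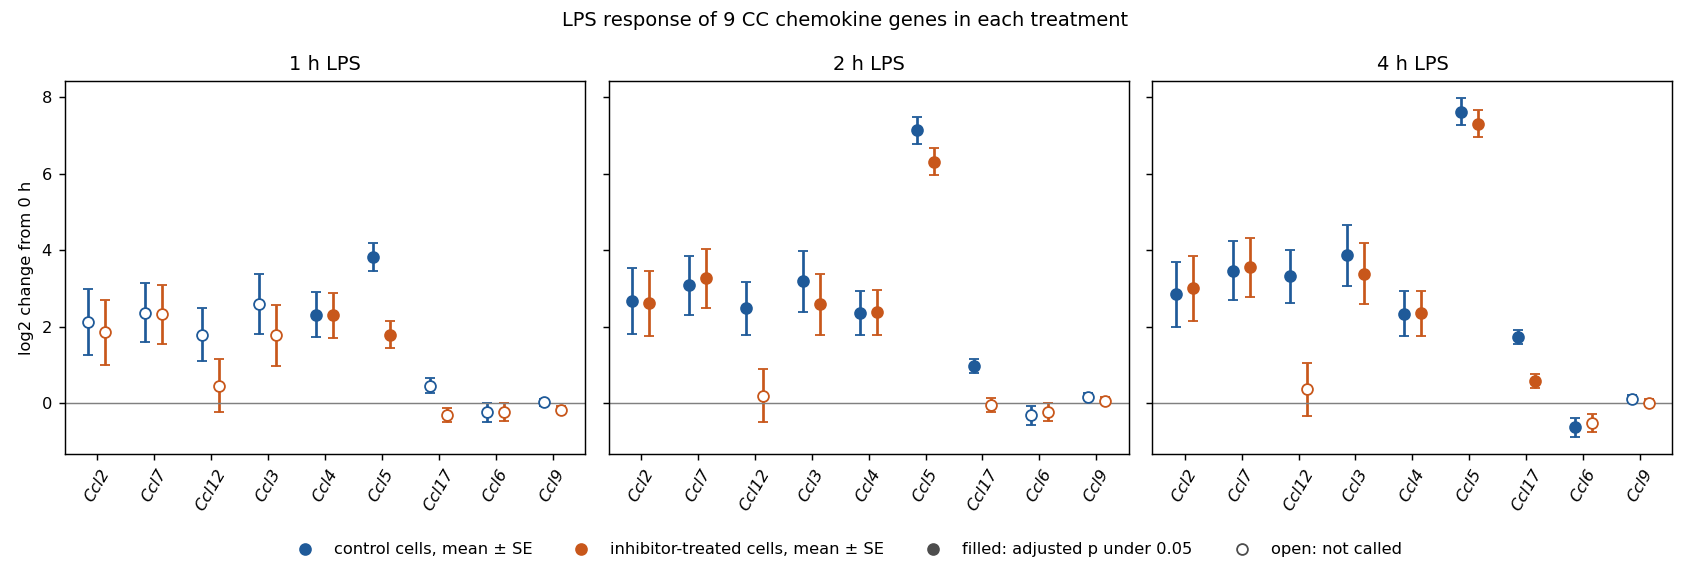
Log2 change from 0 h to 1, 2 or 4 h of LPS for 9 genes, as mean ± SE from limma, blue for control and orange for inhibitor-treated macrophages, with filled symbols for called changes. The treatments lie close together for Ccl2, Ccl7 and Ccl4 (brighter probe), whereas Ccl5, Ccl12 and Ccl17 have the higher point in control cells at each time. The gap of Ccl5 is widest at 1 h (3.82 in control, 1.79 in treated cells). The other Ccl4 probe, not shown, was up by 3.97 in control and 3.03 in treated cells at 1 h (SE 0.72).

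LPS raised most of the family in control cells. After 1 h 2 of 9 members were higher, Ccl4 and Ccl5, where 2.15% of all genes were, and the block added Ccl2 (2.13 ± 0.86, adjusted p = 0.0195), Ccl3 (2.59 ± 0.80, 0.0327), Ccl7 (2.37 ± 0.77, 0.0150) and Ccl12 (1.79 ± 0.69, 0.00991). After 2 h 7 of 9 were higher against 10% of all genes, namely all but Ccl6 and Ccl9, and after 4 h those 7 again, against 19.8%. Ccl6 was the single member lower after 4 h, against 32.7% of all genes, and after 2 h it was lower with the block (-0.32, adjusted p = 0.00796). After centring on housekeeping genes or cyclic loess the 4 h calls were 8 higher and 0 lower, with Ccl9 now higher and Ccl6 no longer called. The centring moved the median change of all genes after 4 h from -0.14 to 0.49.

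The 4 h rises in control cells were 2.85 ± 0.86 for Ccl2, 3.46 ± 0.77 for Ccl7, 3.87 ± 0.80 for Ccl3 and 2.34 ± 0.59 for Ccl4. Control replicate 1 of 0 h had the lowest control levels of all 4 genes. Without it the rises were 1.74 for Ccl2 (adjusted p = 0.0776), 2.30 for Ccl7 (0.00651), 2.68 for Ccl3 (0.00309) and 1.46 for Ccl4 (0.0209). The 2 h rise of Ccl2 (2.67 ± 0.86, adjusted p = 0.0258) was lost without that array (1.56, 0.174) or without control replicate 2 (0.0854) or 3 (0.0777) of 2 h. Those of Ccl3 (3.18), Ccl4 (2.36) and Ccl7 (3.08) came to 1.99, 1.47 and 1.91 without it and stayed called. After 1 h the call for Ccl4 (2.31 ± 0.59, adjusted p = 0.0308) was lost without that array (1.42, 0.195) or without control replicate 1, 2 or 3 of 1 h (0.0849 to 0.109). Ccl3 (0.0157) and Ccl7 (0.0271) were called at 1 h once control replicate 3 of 0 h was left out. The other Ccl4 probe was up by 3.97 ± 0.72 after 1 h (adjusted p = 0.00176).

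In inhibitor-treated cells 2 of 9 members were higher after 1 h, again Ccl4 (2.30 ± 0.59, adjusted p = 0.0337) and Ccl5, against 1.73% of all genes, and the block added Ccl2 (adjusted p = 0.0418) and Ccl7 (0.0167). After 2 h 5 of 9 were higher against 7.4%, namely Ccl2 (2.61 ± 0.86), Ccl3 (2.58 ± 0.80), Ccl4 (2.37 ± 0.59), Ccl5 and Ccl7 (3.27 ± 0.77). After 4 h 6 of 9 were higher against 19.7%, those 5 and Ccl17, with Ccl2 up by 3.00 ± 0.86, Ccl7 by 3.55 ± 0.77, Ccl3 by 3.39 ± 0.80 and Ccl4 by 2.35 ± 0.59. Ccl12 was called at 2 h and 4 h in control cells and at neither time in treated cells.

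Among treated arrays, replicate 1 of 0 h had the lowest levels of Ccl2, Ccl3, Ccl4 and Ccl7. Without it Ccl4 after 1 h (1.34, adjusted p = 0.141), Ccl2 (1.48, 0.225) and Ccl3 (1.40, 0.180) after 2 h and Ccl2 after 4 h (1.87, 0.0623) were no longer called. The rises of Ccl4 came to 1.42 after 2 h and 1.40 after 4 h and that of Ccl3 to 2.21 after 4 h, all still called. Ccl7 came to 2.18 after 2 h (0.0321) and 2.46 after 4 h (0.00676). Ccl4 after 1 h was also lost without treated replicate 1, 2 or 3 of 1 h (0.0877 to 0.122), and Ccl7 was called without treated replicate 3 of 0 h (0.0346). After 2 h Ccl2 was lost without treated replicate 2 of 0 h (0.0628), and Ccl2 and Ccl3 without treated replicate 2 (0.130 and 0.0782) or 3 (0.115 and 0.0751) of 2 h.

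Tested directly, the inhibitor effect after 1 h differed from that before LPS for 0 of 9 members by limma (2 at an unadjusted p under 0.05), against 0.0244% of all genes, and after 2 h again for 0 of 9 (2 at an unadjusted p under 0.05), against 0.878%. With the block Ccl12 and Ccl17 were called after 2 h. After 4 h the effect was more negative than before LPS for 1 of 9, Ccl17, against 3.85% of all genes, and the block added Ccl12. These comparisons share the 0 h arrays. Between 1 h and 4 h 2 of 9 members rose in control cells, Ccl5 and Ccl17 (1.27 ± 0.19), against 18.3% of all genes. The block added Ccl12 (1.52, adjusted p = 0.00368) and the lower Ccl6 (-0.40, adjusted p = 0.000822). In treated cells the same 2 members rose, Ccl17 by 0.89 ± 0.19, against 20.5%, and the block added the lower Ccl6 (-0.29, adjusted p = 0.0107).

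**Figure D4:**
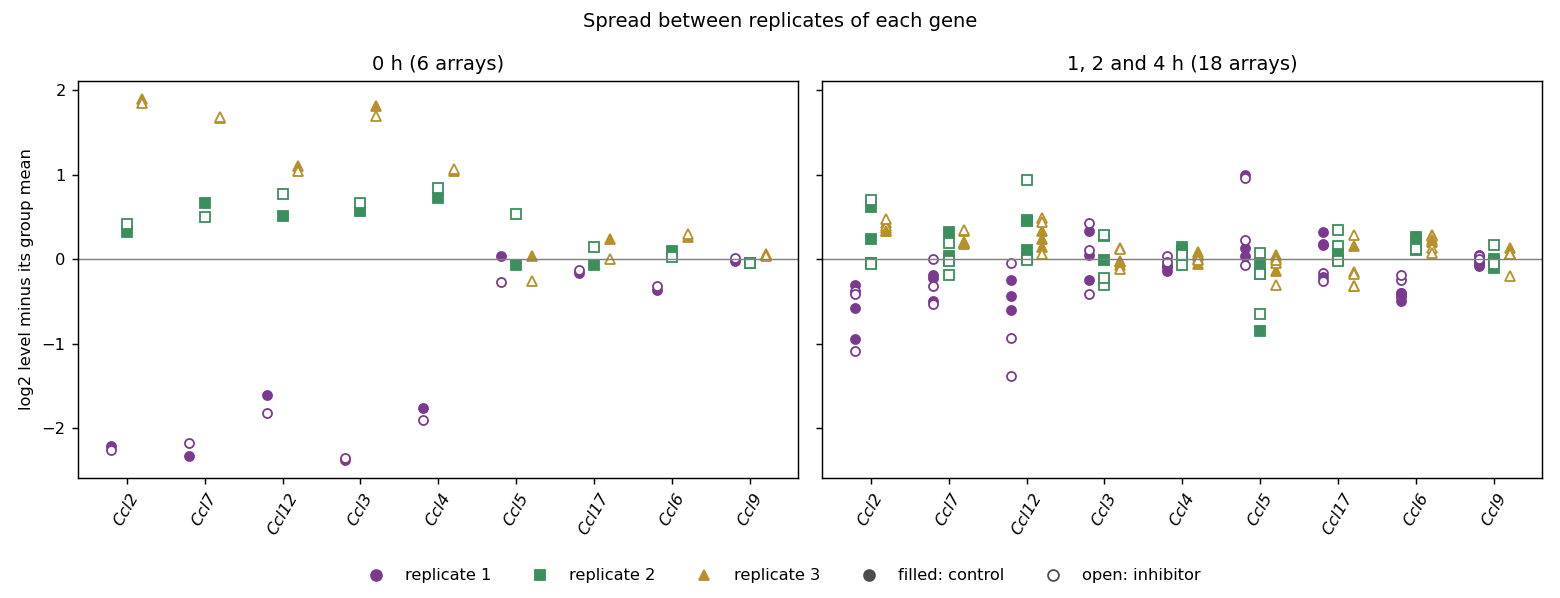
Log2 level minus the mean of its group for 9 genes, with colour and shape for the replicate and filled or open symbols for control or treated arrays, at 0 h on the left and pooled over 1, 2 and 4 h on the right. At 0 h replicate 1 lies far below the group mean for Ccl2, Ccl7, Ccl12, Ccl3 and Ccl4 in both treatments, and the spread is smaller with LPS.

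The spread between replicates was itself uneven over the family. Pooled over groups, the residual SD of Ccl2 was 1.17, of Ccl3 1.09 and of Ccl7 1.05, against a median of 0.17 over all genes tested. Those of Ccl12 (0.95) and Ccl4 (0.80) lay above the 99th percentile, and that of Ccl9 (0.09) at the 5.7th. The deviations of Ccl2, Ccl3, Ccl4, Ccl7 and Ccl12 from their group means had Pearson correlations between 0.79 and 0.96 over the 24 arrays. Genes share each array's RNA and scaling, and these values take in the wide 0 h deviations. With LPS the genes did not always deviate together. After 1 h, control replicates 1, 2 and 3 deviated by 0.34, -0.26 and -0.07 for Ccl3 and by -0.31, -0.05 and 0.36 for Ccl2. After 2 h replicate 1 was lowest and replicate 2 highest for both genes, in both treatments. Over all 24 arrays the deviations of Ccl6 correlated with those of Ccl2, Ccl3, Ccl4, Ccl7 and Ccl12 at 0.43 to 0.77. The range was 0.23 to 0.35 for Ccl17, 0.03 to 0.18 for Ccl9 and -0.27 to 0.17 for Ccl5.

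The deviations were widest at 0 h, where replicate 1 was lowest and replicate 3 highest for these 5 genes in both treatments. In replicate 1 at 0 h the mean of 9 granulocyte markers was 6.91 in control and 6.92 in treated cells, against 6.64 to 6.68 in replicates 2 and 3. That of 4 mast cell and basophil markers was 8.29 and 8.23, against 7.78 to 7.99. With LPS too, replicate 1 had the highest mast cell and basophil mean in every group. It also had the highest granulocyte mean in every group except treated cells at 2 h. The part of other cells in the 0 h spread was not tested.

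The genes most like each member over the 24 arrays were found by Pearson correlation, as a description of arrays that share treatment, time and scaling. For Ccl5 they were Trex1 (0.99), Isg15 (0.99) and Cd40 (0.98), and for Ccl17 Fpr2 (0.94), Src (0.92) and Rtp4 (0.92). Ccl12 lay closest to Osbpl3 (0.89), Clec5a (0.87) and Gpr85 (0.84). For Ccl2 the closest were Yrdc (0.85), Pim1 (0.83) and H2-Q7 (0.80), for Ccl7 Yrdc (0.89), Icam1 (0.86) and H2-Q7 (0.86), for Ccl3 Yrdc (0.86), Tmprss11d (0.85) and Marcksl1 (0.85) and for Ccl4 Socs3 (0.91), Pim1 (0.88) and Tnfaip3 (0.87). Ccl6 was closest to Aaas (0.95), Tk1 (0.94) and Hmgn2 (0.94), and Ccl9 to Nck1 (0.77), Prag1 (0.76) and Ccn4 (0.72).

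Of 11 other CC chemokine genes on the array, 4 were above the floor (Ccl8, Ccl24, Ccl25 and Ccl27a), and 0 of 4 were called between treatments by limma at any time (1 at an unadjusted p under 0.05 after 2 h and 2 after 4 h). Their median difference after 4 h was -0.01, beside 0.04 over all genes tested. With the block Ccl24 was lower (-0.25, adjusted p = 0.0212) and Ccl25 higher (0.21, adjusted p = 0.0392) after 4 h. Among 16 receptors and scavengers of CC chemokines, 15 were on the array and only Ccrl2, an atypical receptor known to bind chemerin, was above the floor. LPS raised it in control cells by 4.03 ± 0.23, 4.59 and 3.68 after 1, 2 and 4 h. The inhibitor difference for Ccrl2 was already -0.68 before LPS, not called by limma though at an unadjusted p under 0.05. It was -0.995 after 1 h (adjusted p = 0.0235), -0.96 after 2 h (0.0104) and -0.21 after 4 h (0.570). The effects after 1, 2 and 4 h differed from that before LPS by -0.32, -0.28 and 0.47, none of them called.

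Of 23 transcription factor genes chosen for known roles at chemokine genes, 20 were on the array and 19 were tested. In treated against control cells 2 were lower after 1 h, the NF-kB subunit Rel (-1.26 ± 0.19, adjusted p = 0.000692) and Irf4 (-1.67 ± 0.33, 0.00743). After 2 h Irf5 was lower (-0.73 ± 0.18, 0.0129). After 4 h 3 were lower, Irf8 (-2.003, 6.23e-05), Stat3 (-0.50 ± 0.14, 0.0125) and Stat6 (-0.62 ± 0.12, 0.000622), the last of which carries the interleukin-4 signal. None of the 19 was called higher, where 0.524%, 2.72% and 12.6% of all genes were after 1, 2 and 4 h. Over all genes 0.78%, 4.22% and 10.2% were lower after 1, 2 and 4 h, and the 3 of 19 after 4 h are close to that share. The block added the lower Irf7 after 2 h (-0.97, adjusted p = 0.00217) and the lower Irf5 (-0.40, 0.0329) and Irf7 (-0.53, 0.0457) after 4 h, and the higher Jun after 1 h (1.11, 0.0481) and Atf3 after 4 h (0.54, 0.0316). The median difference of the 19 was -0.01, -0.17 and 0.06 after 1, 2 and 4 h, beside 0.01, 0.04 and 0.04 over all genes tested. A link between these factors and the chemokine genes was not tested.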

How the data were processed

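Total RNA was labelled as biotin cRNA (Ambion MessageAmp, per the labels' protocols) and hybridised to 24 Illumina 1-colour arrays. The authors deposited 1 value per probe and array. These deposited values were read as log2 intensities because they run from 5.354 to 15.172, and as quantile normalized because values of equal rank differed by at most 0.004 between arrays at 99% of ranks. The submitters' processing notes name limma, without a version, and no source used here says how background was treated. A further table of non-normalized values was not used, because the names of its 72 value columns could not be matched to samples.

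Probes were named from the platform annotation (23978 of 25697 had 1 symbol and 1719 none). Of these, 10891 were above the floor of 6.46 on all 3 arrays of a group. The probe with the highest mean stood for each gene, and each probe without a symbol stood for itself. That gave 8203 features, 7584 of them with a symbol, and all 8203 are called genes here. limma 3.58.1 in R 4.3.3 fitted 8 group means to 24 arrays (16 residual degrees of freedom, and 14 with the block). Its two-sided p-values were adjusted by the Benjamini-Hochberg method over all 8203 genes for each of 15 comparisons. Differences and levels are on the log2 scale, and the number of arrays, 3 a group, limits their precision. Each SE pools the spread of all 8 groups, so it does not measure the spread at any 1 time. The spread of Ccl2, Ccl3, Ccl4, Ccl7 and Ccl12 was widest at 0 h. For these genes an uncalled difference with LPS does not show the absence of an effect.

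Arrays with the same replicate number deviated from their group means together, with correlations over genes of 0.349 to 0.847 for number 1, 0.106 to 0.715 for number 2 and 0.172 to 0.734 for number 3 (28 pairs each, all over 0.1). The numbers were therefore taken to pair the arrays, and the fit with the replicate number as a block is given where it changes a call. Alternatives were that block, no filter, a stricter filter, all probes as separate features, the probe with the largest variance, centring on 11 housekeeping genes, cyclic loess, background subtraction, and leaving out each array or each replicate number. The fit was also run on simulated data with independent noise and, for each gene, the same spread in every group. Those data lack the wider spread at 0 h and the shared deviations of a replicate number, so the run does not cover these features. The members, gene lists and tests were chosen with earlier results of these data known. All members are named whatever their values, like genes are the 3 with the highest correlation, and genes of the other lists are named where called between inhibitor and control, with or without the block.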

Additional observations from a re-analysis of the deposited data

Results flagged for a closer look

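The effect of the inhibitor on Ccl17 differed between 4 h of LPS and 0 h. Inhibitor against control was 0.24 ± 0.19 on the log2 scale at 0 h and -0.91 ± 0.19 at 4 h, and limma's test of the difference gave -1.15 ± 0.26 (adjusted p = 0.00894 over 8203 genes). The treated array was above the control array of its number in 3 of 3 pairs at 0 h and below it in 3 of 3 pairs at 4 h. The difference was called without each single array and lost when the arrays numbered 2 were left out (-1.01, adjusted p = 0.286).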

How the results depend on the processing

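Each member was tested in 15 comparisons, 135 results in all. Every probe as a separate feature, the probe with the largest variance, the stricter filter and background subtraction moved none of the 135 across the threshold (as a separate feature, the other Ccl12 probe gained 1 call). The replicate block added 15 calls and changed no other call. It raised the calls from 1 to 2 for inhibitor against control at 2 h, from 2 to 6 for 1 h of LPS in control and from 2 to 4 in treated cells, from 0 to 2 and from 1 to 2 for the inhibitor effect at 2 h and 4 h against that at 0 h, and from 2 to 4 for 4 h against 1 h in control cells. With Ccl6 called lower, the block also raised the calls from 7 to 8 for 2 h of LPS in control cells. They rose from 6 to 7 for 4 h of LPS and from 2 to 3 for 4 h against 1 h in treated cells. Without the filter, with more genes tested, the calls fell to 1 for 1 h of LPS in each treatment. They fell to 3 for 2 h in treated cells. Centring on housekeeping genes gave 2 calls for inhibitor against control at 2 h, 2 for the inhibitor effect at 4 h against 0 h and 4 for 4 h against 1 h in control cells, and cyclic loess gave 2 for inhibitor against control at 2 h. In all, the centring added 8 calls and lost 1, and cyclic loess added 7 and lost 1. Under both, Ccl9 was called lower for inhibitor against control at 4 h. It was called higher for 2 h and 4 h of LPS in control cells and for 4 h against 1 h in each treatment. The lost call was that of Ccl6 at 4 h of LPS in control cells. The centring moved the median of inhibitor against control at 4 h from 0.04 to -0.31.

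Leaving out 1 array or replicate number in turn gave 0, 0 to 2, 0 to 2 and 0 to 2 calls for inhibitor against control at 0, 1, 2 and 4 h, 1 to 4, 2 to 7 and 6 to 8 for LPS in control cells at 1, 2 and 4 h, 0 to 3, 1 to 5 and 4 to 8 in treated cells, 0 to 1, 0 to 1 and 0 to 2 for the inhibitor effect at 1, 2 and 4 h against 0 h, and 2 to 6 and 2 to 7 for 4 h against 1 h in control and treated cells. The change of Ccl12 with 4 h of LPS in treated cells, 0.36 with all arrays, ran from -0.55 to 0.88 and was called downward without replicate number 1 (-0.52, adjusted p = 0.0337). Dropping a whole replicate number leaves 2 arrays a group. Those fits lost 33 calls, gained 18 and reversed 1 change, and not all of these are listed above. Ccl9, Ccl4 and late Ccl5 lie near the top of the scale, late Ccl7 and Ccl3 lie somewhat below them, and Ccl22 lies under the floor.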
